A study of Mus musculus with 22 samples.

Results

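The genes described here are the cytochrome P450 oxidases of families Cyp1 to Cyp4, the carboxylesterases (Ces), the alcohol dehydrogenases (Adh) and the aldehyde dehydrogenases (Aldh) of mouse intestine. They were taken by the gene name printed in the array files, as every name beginning with one of these stems, and each gene was read from its brightest probe. This gave 86 genes out of 27962 gene names on the array: 3 of Cyp1, 34 of Cyp2, 6 of Cyp3, 11 of Cyp4, 6 of Ces, 6 of Adh and 20 of Aldh. Some names are old: by the accession on the array, Ces1 is now Ces1g, Ces2 is Ces2c, Ces3 is Ces1d, Ces5 is Ces2e and Ces6 is Ces2a, and the array's names are kept below. The study compared SIRT1 iKO mice, mutants of the deacetylase SIRT1, with Flox control mice on one-colour Agilent arrays of total RNA. The 6 groups were aged colon iKO (n = 4), aged colon flox (n = 3), aged ileum iKO (n = 4), aged ileum flox (n = 3), young ileum iKO (n = 4) and young ileum flox (n = 4), 22 arrays in all. All mice were male C57BL/6 on chow; aged mice were 24 months old and young mice 6 to 8 weeks. The labels neither spell out iKO nor name the Cre driver or the part of Sirt1 deleted, they give the tissue without saying whether mucosa or whole wall was taken, and they do not say whether replicates were separate mice, so p-values measure the spread between these samples.

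Phase I enzymes make foreign and endogenous lipophilic molecules more polar by oxidation, reduction or hydrolysis. P450s in the endoplasmic reticulum insert oxygen with electrons from the reductase POR; the Cyp1 to Cyp3 families act mainly on drugs, toxins and dietary chemicals, and Cyp4 enzymes hydroxylate the tail of fatty acids and leukotrienes. Carboxylesterases cleave ester drugs and lipid esters in enterocytes. Alcohol and aldehyde dehydrogenases act in sequence, turning ethanol into acetate and retinol into retinoic acid, while other aldehyde dehydrogenases serve amino acid, folate and carnitine metabolism. In the gut epithelium many of these genes are known targets of the receptors AhR, PXR and PPAR alpha and are graded along the length of the intestine.

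All levels below are log2 signals relative to the array's own 75th percentile, so that 0 is the brightness of that percentile; a difference of 1 between groups is a 2-fold change, and levels of different genes are not compared because probes differ. Sirt1, the targeted gene, was read first. Its level was 0.41, 0.59, 0.65 and 0.34 in aged colon iKO, against 0.79, 0.79 and 0.76 in aged colon flox. It was 0.28, 0.32, 0.30 and 0.39 in aged ileum iKO, against 0.59, 1.09 and 0.78 in aged ileum flox, and 0.64, 0.72, 0.70 and 0.75 in young ileum iKO, against 0.96, 0.60, 1.19 and 0.92 in young ileum flox. The aged groups did not overlap and the young groups did. The iKO signal was 82.1%, 70.8% and 86.2% of flox in these 3 settings, and none of the differences passed the limma test over all genes (adjusted p = 0.623, 0.177 and 0.999). The labels do not place the deletion, so the probe may lie outside it.

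Some features of the arrays touch the results. Aged ileum flox replicate 1 and aged ileum iKO replicate 2 carried some colon markers and are called the arrays with colon markers below. Carbonic anhydrase Car1 stood at 8.18 and 7.79 there, against -3.00 to -2.14 in the other aged ileum arrays and 8.17 to 8.74 in colon. Aqp8 stood at 6.55 and 5.57, against -5.04 to -2.08 and 6.27 to 8.09. Slc26a3, at 3.34 and 2.85, stayed below its colon range of 3.72 to 5.28. Ggh, at 0.71 and 0.47, stayed within the 0.38 to 0.79 of the other aged ileum arrays. Car4 and Muc3 overlapped between the tissues. The ileal bile acid binder Fabp6 stayed at 3.20 and 3.60. Results that rest on these 2 arrays are given with and without them, a setting chosen after seeing the data. Car1 was also raised in young ileum, at 2.63 in flox replicate 2 and 1.26 in iKO replicate 2. The other young arrays had -2.99 to -2.39. Aqp8 was not well above background on these raised young arrays, and they were kept in that setting. Aged ileum flox replicate 4 carried liver markers: the summed signal of the 4 on the array was 4.53 multiples of the 75th percentile, against 0.0598 to 0.391 in the other ileum arrays, and their part in the results was not tested. Ileum arrays lay on slides 1 to 4 and colon arrays on slides 5 to 8, so tissue and array run cannot be told apart; in the same way genotype coincided with slide position in young ileum and colon, and age coincided with position in the ileum. Each ileum array had 49.8% to 61.5% of spots well above background and each colon array 70.4% to 79.7%, so dim genes were seen better in colon; the number of arrays limits the precision throughout.

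The promoters of 7 paralogues are shown because the Cyp2c genes among them moved together from array to array. So did the Cyp3a genes, in a pattern of their own, as described below. The promoters are the 250 bases before the transcription start, 5′ to 3′ on the gene's strand, from RefSeq on GRCm38.p6, which holds a promoter for 68 of the 86 genes. Capitals mark the letters TATAAA and AGGTCA, searched on both strands; AGGTCA is the core element of nuclear receptors such as PXR.
Cyp2c55 (chr19:39006769-39007018, plus strand): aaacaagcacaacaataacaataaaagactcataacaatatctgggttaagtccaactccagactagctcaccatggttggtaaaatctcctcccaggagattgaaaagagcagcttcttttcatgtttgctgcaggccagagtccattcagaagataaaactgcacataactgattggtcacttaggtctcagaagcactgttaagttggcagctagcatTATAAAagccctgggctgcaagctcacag
Cyp2c65 (chr19:39060756-39061005, plus strand): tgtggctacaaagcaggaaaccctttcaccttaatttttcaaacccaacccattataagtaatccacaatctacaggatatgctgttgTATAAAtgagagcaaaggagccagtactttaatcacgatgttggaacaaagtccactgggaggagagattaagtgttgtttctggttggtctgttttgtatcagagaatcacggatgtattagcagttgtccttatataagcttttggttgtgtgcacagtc
Cyp2c66 (chr19:39113648-39113897, plus strand): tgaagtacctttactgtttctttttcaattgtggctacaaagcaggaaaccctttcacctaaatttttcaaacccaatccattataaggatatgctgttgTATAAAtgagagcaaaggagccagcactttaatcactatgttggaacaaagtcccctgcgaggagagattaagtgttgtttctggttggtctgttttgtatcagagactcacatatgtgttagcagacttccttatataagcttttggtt
Cyp3a16 (chr5:145469724-145469973, minus strand): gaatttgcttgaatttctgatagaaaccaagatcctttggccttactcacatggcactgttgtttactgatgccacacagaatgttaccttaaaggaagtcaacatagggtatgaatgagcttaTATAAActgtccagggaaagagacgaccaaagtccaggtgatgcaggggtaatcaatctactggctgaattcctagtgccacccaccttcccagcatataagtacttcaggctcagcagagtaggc
Cyp3a41a (chr5:145720137-145720386, minus strand): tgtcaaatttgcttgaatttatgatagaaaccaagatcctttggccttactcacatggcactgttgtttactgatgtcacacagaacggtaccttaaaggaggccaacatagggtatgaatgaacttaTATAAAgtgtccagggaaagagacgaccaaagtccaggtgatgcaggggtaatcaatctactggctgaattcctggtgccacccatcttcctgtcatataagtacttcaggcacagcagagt
Cyp3a44 (chr5:145805875-145806124, minus strand): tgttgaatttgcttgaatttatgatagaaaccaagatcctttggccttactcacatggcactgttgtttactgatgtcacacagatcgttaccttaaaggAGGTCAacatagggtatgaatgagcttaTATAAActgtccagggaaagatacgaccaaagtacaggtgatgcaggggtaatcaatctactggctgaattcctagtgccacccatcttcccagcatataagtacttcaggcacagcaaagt
Cyp3a11 (chr5:145879855-145880104, minus strand): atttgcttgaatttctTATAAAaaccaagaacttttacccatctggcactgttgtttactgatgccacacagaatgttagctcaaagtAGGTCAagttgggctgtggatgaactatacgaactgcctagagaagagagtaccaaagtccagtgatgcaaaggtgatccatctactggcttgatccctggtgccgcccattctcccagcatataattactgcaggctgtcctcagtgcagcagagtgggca
Cyp3a41a is the gene of the array name Cyp3a41. The Cyp2c65 and Cyp2c66 promoters were identical at 94.1% of 221 aligned bases, while Cyp2c55 matched them at 71.8% and 72.9%. Those of Cyp3a16, Cyp3a41a and Cyp3a44 were 93.9% to 95.9% identical to each other and 81.7% to 83.7% identical to Cyp3a11. TATAAA began 29 bases before the start in Cyp2c55 and 122 to 234 bases before it in the 4 Cyp3a genes, and AGGTCA was found in Cyp3a44 and Cyp3a11 only, 150 and 162 bases before the start. TATAAA stood in 36.8% of the 68 promoters and in 12.4% of all 32851, AGGTCA in 22.1% and 14%. Such matches are letters, not shown sites. Among the 86 probes themselves, 0 pairs shared 85% of at least 40 bases; binding of a probe to a paralogue's transcript was not tested, so values of close paralogues are uncertain.

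Of the 86 genes, 51 were well above background on every one of the 22 arrays and 10 on no ileum array. The share was lowest in Cyp1, where 1 of 3 was seen on all arrays, and in Cyp2, where 15 of 34 were; it was 4 of 6 for Cyp3, 7 of 11 for Cyp4, 5 of 6 for Ces, 3 of 6 for Adh and 16 of 20 for Aldh. Genes whose probe was detected in this sense throughout at least 1 group entered the tests, which left 62 genes in the ileum and 74 in colon. The 12 that were tested nowhere included Cyp1a1, the classic AhR target, Adh7, the retinol-oxidising dehydrogenase of the upper digestive tract, and Aldh3a1, the corneal crystallin, which was not well above background on any array. In the ileum the brightest probes within families were Cyp2s1, Cyp3a13, Cyp4f14, Ces5, Adh5 and Aldh1b1, with mean levels of 4.64, 4.56, 7.06, 5.81, 4.14 and 6.19. In the colon they were Cyp2c55 at 6.5, Cyp3a13 at 3.62, Cyp4f14 at 4.83, Ces2 at 4.71, Adh1 at 6.26 and Aldh1a1 at 5.28.

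The first question was how these genes differed in SIRT1 iKO intestine. No phase I gene passed the test in any of the 3 iKO comparisons, while most differences pointed the same way, with lower levels in iKO. By limma with Benjamini-Hochberg adjustment, 0 of 74 genes passed in aged colon, where 0.111% of all genes did. In aged ileum 0 of 62 passed beside 0.167% of all genes, and in young ileum 0 of 62 beside 0.0449%. At an unadjusted p under 0.05 the counts were 6, 21 and 7, where 7.21%, 12% and 4.12% of all genes lay below it. Of all genes called, more were higher than lower in iKO: 0.0911% against 0.0202% in aged colon, 0.115% against 0.0513% in aged ileum and 0.0385% against 0.00642% in young ileum. In whole tissue, fewer cells of a type and less RNA per cell cannot be told apart.

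The sign was described over the 51 genes seen on all 22 arrays, since these did not need a bright group to enter. In aged colon 41 of 51 were lower in iKO, or 80.4%, against 52.8% of the 13700 genes seen on all arrays, with a median difference of -0.14. In aged ileum 42 of 51 were lower, or 82.4% against 44.7%, with a median of -0.36. In young ileum 45 of 51 were lower, or 88.2% against 51.7%, with a median of -0.23. Paralogues that move together make these counts less than independent. Single arrays carried part of the size: without young ileum flox replicate 3 the young median was -0.08 with 36 of 51 lower, without aged ileum flox replicate 3 the aged ileum median was -0.28 with 35 lower, and without aged colon flox replicate 1 the colon median was -0.29. Young flox replicate 3 had the highest level of its group for 44 of the 62 tested genes and aged flox replicate 3 for 40. On the slides that held both genotypes, the median over tested genes was -0.20, 0.21, -0.64 and -0.22 on the 4 young ileum slides, -0.63 on the 1 aged ileum slide, and -0.22, -0.17 and 0.24 on 3 colon slides. The sign thus turned on 1 young and 1 colon slide. Markers of other cells moved with the aged ileum shift: 6 of 6 fibroblast markers had a negative difference (median -0.47), as had 6 of 6 of smooth muscle (-0.16) and 5 of 6 of fat (-0.75), while 4 of 5 of B and plasma cells had a positive one (0.84), and 0 of these passed. The summed fibroblast signal was 39.6 to 66.1 in aged ileum iKO, against 59.7 to 77.6 in aged ileum flox, and that of fat 29.9 to 42.8, against 41.9 to 158. Markers of proximal small intestine had a negative aged ileum difference in 3 of 4 (median -0.59). In young ileum those of fat were negative in 6 of 6 (-1.47) and those of proximal small intestine in 4 of 4 (-0.70). Enterocyte markers of small intestine were negative there in 4 of 7 (-0.02) and goblet markers in 1 of 5 (0.03). None of these passed either. The part of such markers in the aged and young shifts was not tested.

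**Figure D1:**
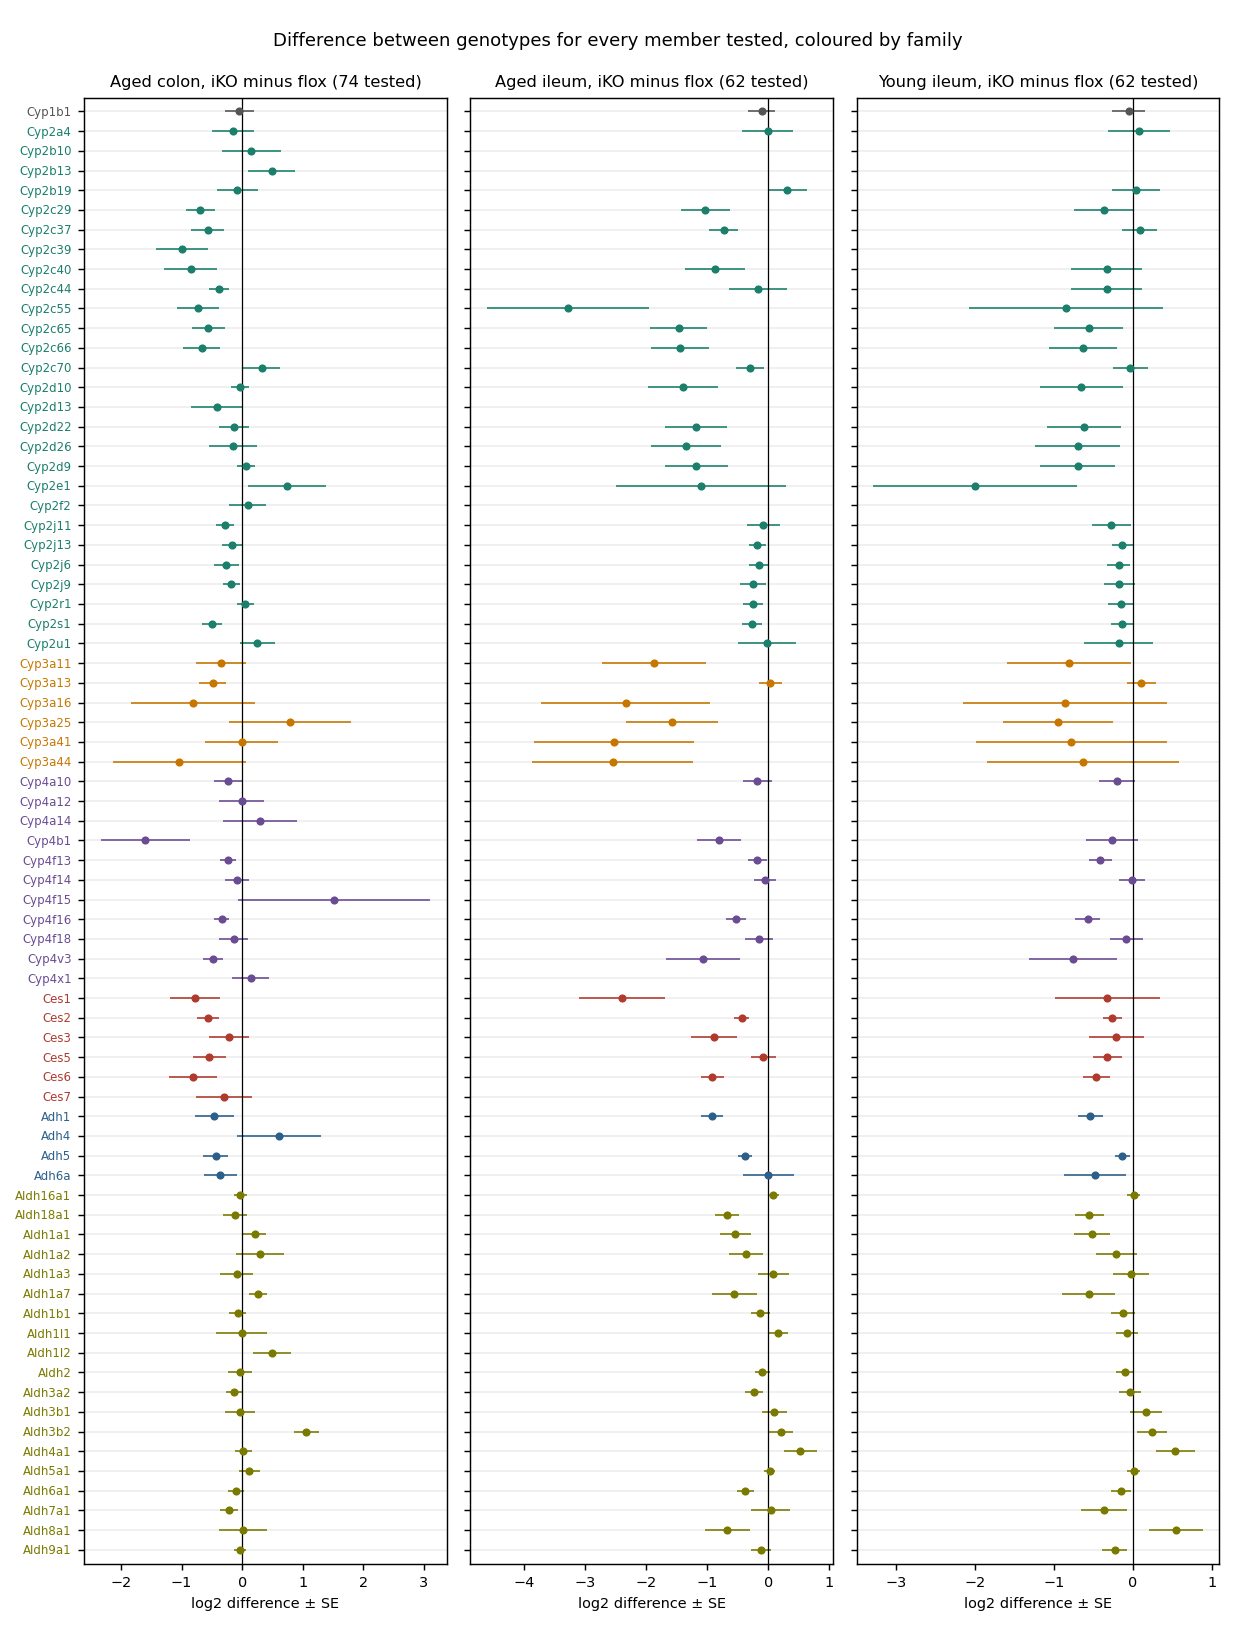
Each point is 1 phase I gene and shows its iKO minus flox difference (log2) by enzyme family in the 3 settings. Points lie mostly below 0 in every family, no point passed the adjusted test, and Cyp3 and Cyp2 genes reach the lowest values in aged ileum, down to -3.28 for Cyp2c55.

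In the Cyp1 and Cyp2 families, only Cyp1b1, which oxidises oestrogens and polycyclic hydrocarbons, could be tested in Cyp1, and its iKO differences were -0.05 in aged colon, -0.11 in aged ileum and -0.05 in young ileum. In Cyp2, 19 of 27 tested genes were lower in aged colon iKO (median -0.16), 21 of 22 in aged ileum iKO (median -0.52) and 19 of 22 in young ileum iKO (median -0.30). For 8 of these 22, every aged ileum iKO array lay below every flox array. Over all 62 genes 16 did so beside 5.77% of all genes, and 1 lay wholly above, where 8.35% of all genes did. In aged colon 5 of 74 lay wholly below beside 3.84% of all genes and 1 wholly above beside 4.41%. In young ileum 3 of 62 lay wholly below beside 1.21%, and 0 above beside 0.975%.

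Cyp2c55, Cyp2c65 and Cyp2c66, which oxidise arachidonic acid in the intestine, differed widely between arrays. Cyp2c55 stood at 0.77, 4.09, -0.83 and -1.73 in aged ileum iKO, against 5.51, 3.01 and 3.05 in aged ileum flox. The groups overlapped through iKO replicate 2, one of the 2 arrays with colon markers, and flox replicate 1, the other, was the highest. The difference was -3.28 ± 1.33 (SE, adjusted p = 0.355) and -3.63 without both arrays (adjusted p = 0.293). Cyp2c65 had 3.5, 4.59, 2.99 and 2.77 in aged ileum iKO, against 5.20, 4.85 and 4.75 in aged ileum flox, with no overlap and a difference of -1.47 ± 0.47 (adjusted p = 0.257). Cyp2c66 ran alongside at -1.45 ± 0.47. In young ileum the 3 genes differed by -0.85, -0.56 and -0.63 and in aged colon by -0.73, -0.56 and -0.67, none passing. Over the 15 ileum arrays all 3 were highest in aged flox replicate 1 and lowest in young iKO replicate 1. Cyp2c29, an arachidonic acid epoxygenase, was lower in all 4 aged colon iKO arrays, with 1.58, 2.39, 2.38 and 1.61, than in aged colon flox, with 2.59, 2.68 and 2.78; the difference was -0.69 ± 0.24 (adjusted p = 0.567).

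The Cyp2d genes, mouse relatives of the human debrisoquine oxidase, moved together at their brightest probes. Cyp2d26 had 4.14, 3.61, 3.03 and 3.35 in young ileum iKO, against 3.5, 3.57, 6.32 and 3.51 in young ileum flox, so that 1 flox array held nearly the whole difference of -0.70 ± 0.54. Without young flox replicate 3 it was 0.01, and the differences of Cyp2d9, Cyp2d10 and Cyp2d22 changed likewise to -0.10, 0.04 and -0.05. In aged ileum Cyp2d26 had 3.65, 3.69, 4.02 and 3.34 in iKO, against 4.32, 5.69 and 5.06 in flox, with no overlap. The 4 aged ileum differences lay between -1.40 and -1.18 (adjusted p = 0.359 to 0.393), and between -1.05 and -0.82 without aged flox replicate 3. In colon they lay between -0.15 and 0.06. A further, dimmer Cyp2d10 probe did not follow, with -0.01 ± 0.17 in aged colon, -0.20 ± 0.28 in aged ileum and 0.72 ± 0.26 in young ileum. All 4 genes had their highest ileal level in young flox replicate 3, with aged flox replicates 3 and 4 also among the top 3, and their lowest in young iKO replicate 3.

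The same flox arrays stood high in the summed signal of markers of more proximal small intestine, but not in every marker. Fabp1, Apoc3 and Rbp2 stood above the other flox arrays of their age. Slc2a2 did too, though it was not well above background on aged flox replicate 4. Apoa4 did not do so throughout: it was 0.38 in young flox replicate 3, against 0.56 to 1.12 in the other young flox arrays. In aged flox replicates 3 and 4 it was 0.93 and 0.35, against 0.88 in aged flox replicate 1 and 0.69 to 2.80 in aged ileum iKO. Gata4 was not well above background on these flox arrays. The summed signal of 6 such markers was 16.1, 3.84, 6.75 and 8.34 in aged ileum iKO, against 5.93, 13.4 and 13.0 in aged ileum flox. It was 8.54, 3.99, 7.83 and 6.08 in young ileum iKO, against 10.8, 6.33, 18.2 and 8.10 in young ileum flox, in multiples of the 75th percentile, with 4 to 6 of the 6 markers well above background. Aged iKO replicate 1 was high in these markers too but not in the Cyp2d genes. The part of sampling position along the ileum in the Cyp2 and Cyp3 differences was not tested.

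Among the other Cyp2 genes, Cyp2s1, an epithelial P450 induced by AhR ligands, had 4.19, 4.70, 4.83 and 4.54 in aged colon iKO, against 5.16, 4.97 and 5.06 in aged colon flox. The groups did not overlap, the difference was -0.50 ± 0.16 (adjusted p = 0.524), and it was 0.07 when the gene's probes were averaged. No further Cyp2s1 probe was well above background throughout any group, so that average takes in signal near background. Cyp2e1, the ethanol-inducible P450, had -2.76, 0.18, -6.62 and -6.51 in young ileum iKO, against -2.27, -0.34, -0.93 and -4.18 in young ileum flox, a difference of -2 ± 1.29. It was well above background on only 2 of the 4 iKO arrays and on all 4 flox arrays. The summed signal of 7 adipocyte markers was 36.7, 151, 13.0 and 9.17 in young ileum iKO and 53.8, 118, 90.9 and 19.4 in young ileum flox, with 3 to 7 of them well above background. The part of attached fat in Cyp2e1 was not tested. Cyp2j6, an arachidonic acid epoxygenase, had iKO levels between 1.57 and 2.60 and flox levels between 1.65 and 2.64 over all settings.

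**Figure D2:**
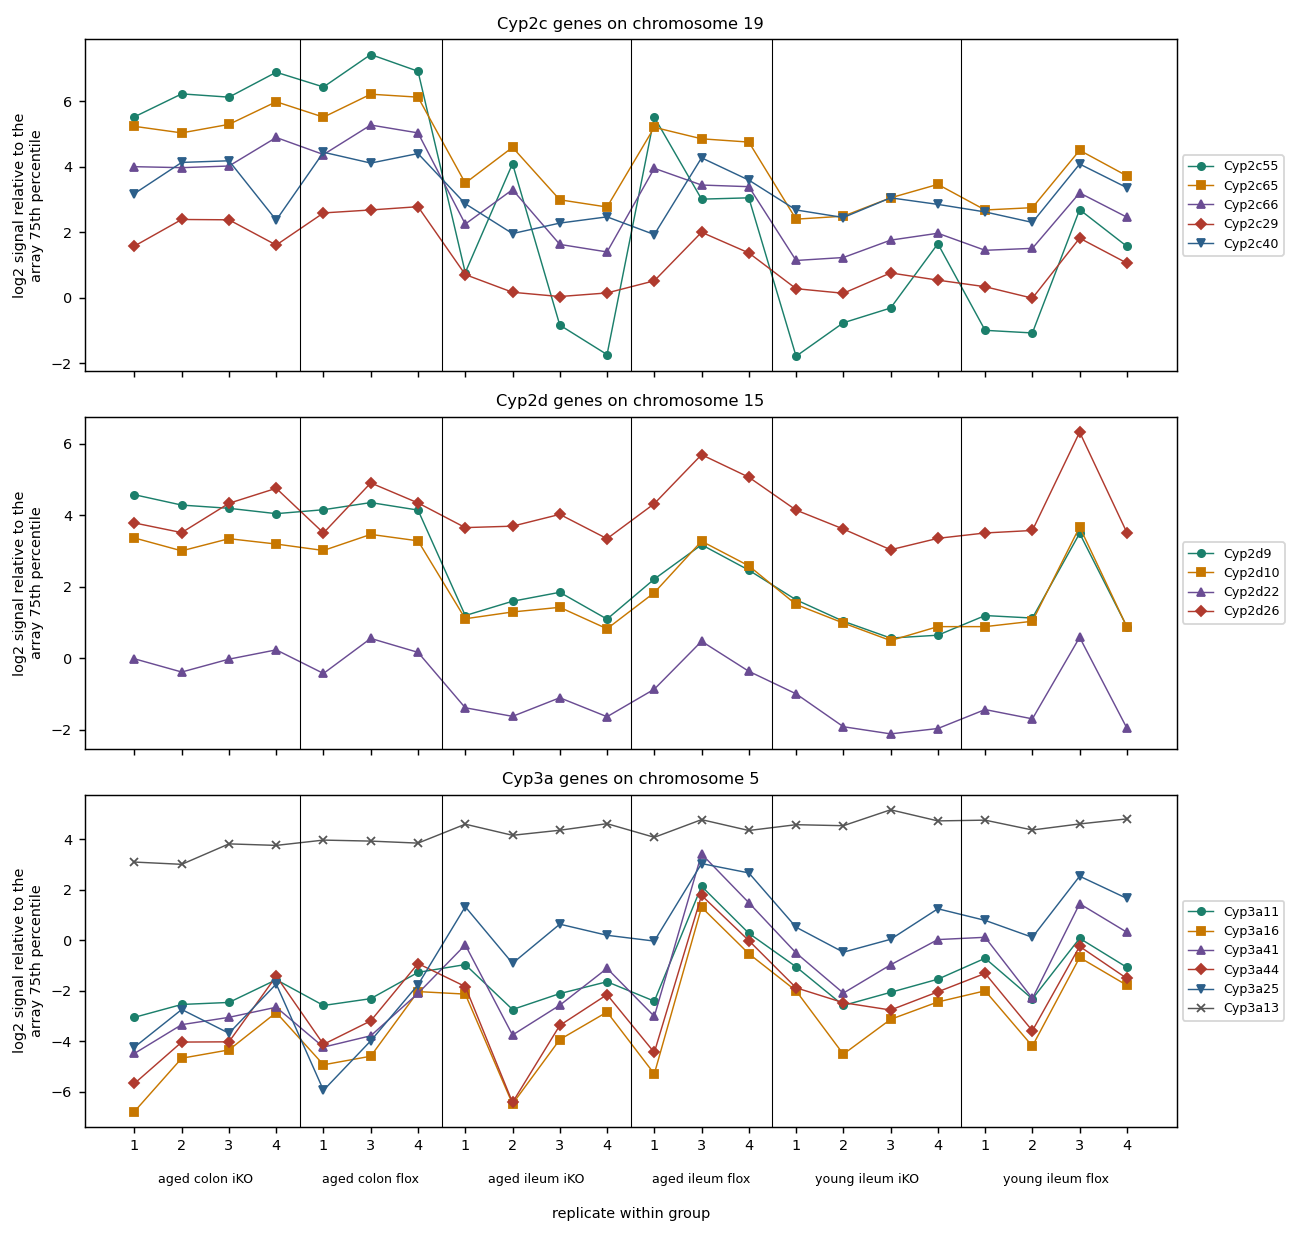
Level (log2 signal relative to the array's 75th percentile) of each Cyp2c, Cyp2d and Cyp3a gene named in the legends on all 22 arrays, ordered by group and replicate, with lines joining values of 1 gene as a guide only. Cyp2d26 reaches 6.32 in young ileum flox replicate 3, Cyp3a41 reaches 3.41 in aged ileum flox replicate 3, and Cyp3a13 stays between 3.00 and 5.16.

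The Cyp3 family split into a steady member and a variable block. Cyp3a13, the member best seen in both tissues, had 4.59, 4.15, 4.35 and 4.61 in aged ileum iKO, against 4.07, 4.77 and 4.34 in aged ileum flox, with a difference of 0.03; in young ileum it was 0.11. In aged colon it had 3.09, 3.00, 3.81 and 3.75 in iKO, against 3.96, 3.92 and 3.84 in flox, which did not overlap (-0.49 ± 0.23, adjusted p = 0.74). Cyp3a11, the main PXR-inducible Cyp3a of mouse, and its neighbours Cyp3a16, Cyp3a41, Cyp3a44 and Cyp3a25 varied far more. Cyp3a11 had -0.97, -2.75, -2.12 and -1.65 in aged ileum iKO, against -2.42, 2.13 and 0.27 in aged ileum flox. Cyp3a41 had -0.19, -3.76, -2.58 and -1.12 in aged ileum iKO, against -3.02, 3.41 and 1.48 in aged ileum flox. Both overlapped through flox replicate 1, one of the arrays with colon markers. The aged ileum differences of these 5 genes ran from -2.55 to -1.58 (adjusted p = 0.409 or higher), and for Cyp3a41 from -4.36 without flox replicate 1 to -1.14 without flox replicate 3. In young ileum they ran from -0.95 to -0.63 and in aged colon from -1.04 to 0.79. All 5 were highest over the ileum in aged flox replicate 3, and lowest in aged iKO replicate 2; aged flox replicate 4 and young flox replicate 3 were the other arrays in the top 3 for each.

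In the Cyp4 family all 7 tested ileal genes were lower in iKO at both ages, with medians of -0.18 in aged ileum and -0.26 in young ileum; in aged colon 8 of 11 were (median -0.14). Cyp4f16, a fatty acid hydroxylase relative of the leukotriene-clearing Cyp4f enzymes, had the smallest p of all members in young ileum. It stood at 3.1, 3.00, 2.87 and 3.30 in young ileum iKO, against 3.59, 3.47, 3.88 and 3.59 in young ileum flox, with no overlap. The difference was -0.57 ± 0.16 (adjusted p = 0.723), and within the 4 slides it was between -0.72 and -0.37. In aged ileum Cyp4f16 had 2.75, 2.20, 2.68 and 2.39 in iKO, against 2.72, 3.34 and 3.03 in flox (-0.53 ± 0.17, adjusted p = 0.257), and in aged colon -0.34 ± 0.13 with overlap. Cyp4f13 differed by -0.41 ± 0.15 in young ileum. Cyp4v3, mouse counterpart of the fatty acid hydroxylase CYP4V2, had -1.29, -0.78, -0.92 and -1.24 in aged colon iKO, against -0.73, -0.61 and -0.39 in aged colon flox (-0.48 ± 0.16, adjusted p = 0.542). Cyp4f14, which hydroxylates leukotriene B4, differed by -0.01 ± 0.17 in young ileum, and Cyp4a10, the PPAR alpha target, had levels of 2.73 to 3.72 in iKO ileum and 2.79 to 3.74 in flox ileum. Cyp4b1, which activates protoxins and oxidises fatty acids, had -0.05, 1.56, 2.79 and 2.68 in aged colon iKO, against 2.38, 3.96 and 3.70 in aged colon flox, a difference of -1.60 ± 0.74 to which iKO replicate 1 gave much of the size (-1 without it).

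Every tested gene with a Ces name on the array was lower in iKO on average in all 3 settings, 6 of 6 in aged colon (median -0.56), 5 of 5 in aged ileum (median -0.89) and 5 of 5 in young ileum (median -0.32), with none passing the test. Ces6, a drug-hydrolysing esterase of the Ces2 subfamily, had 2.81, 2.36, 2.24 and 2.16 in aged ileum iKO, against 3.12, 3.36 and 3.47 in aged ileum flox. The groups did not overlap; the difference was -0.92 ± 0.19, or 1.89-fold lower, with an adjusted p of 0.082. In young ileum Ces6 had 2.70, 2.08, 2.42 and 2.59 in iKO, against 2.87, 2.65, 3.25 and 2.86 in flox (-0.46 ± 0.17, adjusted p = 0.999), overlapping by 1 array. Ces2, of the same subfamily, was below flox on every aged iKO array of both tissues: 4.43, 4.15, 4.54 and 4.73 in aged colon iKO, against 4.76, 5.18 and 5.17 in aged colon flox (-0.57 ± 0.18, adjusted p = 0.481), and 4.11, 4.02, 3.58 and 3.64 in aged ileum iKO, against 4.40, 4.23 and 4.20 in aged ileum flox (-0.44 ± 0.13, adjusted p = 0.228). Its iKO value was also lower on all 4 young slides, with differences of -0.37 to -0.17, and on all 3 colon slides. Some carboxylesterases carry older names on the array and are not among the 86 genes, and they did not all share this direction. Ces2b, Ces2g, Ces1f and Ces2f, by their current names, were lower on every aged ileum iKO array than on every flox array. Ces2b ranged from 4.27 to 4.81 in iKO and from 4.90 to 5.17 in flox. Ces2g had -2.39 to -2.18 against -1.79 to -1.47, and Ces1f 3.31 to 3.44 against 3.74 to 4.09. Ces2f had -1.15 to -0.59 against -0.44 to 0.02. Ces2b was also wholly lower in aged colon and young ileum iKO, and Ces2g in aged colon iKO. None of these passed. Es22, now Ces1e, differed by 1.01 ± 0.18 in aged colon (adjusted p = 0.181), 0.32 ± 0.22 in aged ileum (adjusted p = 0.58) and 0.72 ± 0.20 in young ileum (adjusted p = 0.723). Es1, now Ces1c, differed by 0.86 ± 0.75 in aged colon, -0.28 ± 0.43 in aged ileum and -0.01 ± 0.40 in young ileum.

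Ces1, a lipid ester hydrolase, had -1.85, 0.70, -1.90 and -2.26 in aged ileum iKO, against 2.44, -0.18 and 0.94 in aged ileum flox. The highest iKO and the highest flox value belong to the 2 arrays with colon markers. The difference was -2.40 ± 0.71 (adjusted p = 0.222) with them and -2.39 ± 0.49 (adjusted p = 0.0986) without them, where the groups no longer met. In aged colon Ces1 had 1.99, 2.66, 3.16 and 3.62 in iKO, against 3.21, 4.22 and 3.48 in flox. Ces3, which hydrolyses stored triacylglycerol, had 0.54, 1.17, 1.36 and 0.84 in aged ileum iKO, against 2.23, 1.52 and 1.86 in aged ileum flox, with no overlap (-0.89 ± 0.38, adjusted p = 0.379). Ces5, a further Ces2 enzyme, differed by -0.54 ± 0.27 in aged colon and -0.32 ± 0.19 in young ileum.

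Among alcohol dehydrogenases, Adh1, the class I enzyme for ethanol and retinol, had the smallest p of all members in aged ileum. Its level was 1.51, 1.49, 1.32 and 1.27 in aged ileum iKO, against 2.19, 2.42 and 2.37 in aged ileum flox. The iKO values lay close together and well below flox; the difference was -0.93 ± 0.18, or 1.90-fold lower, with an adjusted p of 0.0671, and -1.03 without the 2 arrays with colon markers (adjusted p = 0.105). In young ileum Adh1 had 0.97, 1.16, 0.68 and 1.15 in iKO, against 1.27, 1.47, 2.06 and 1.32 in flox, again with no overlap (-0.54 ± 0.16, adjusted p = 0.821), and all 4 slides gave a negative value, from -0.91 to -0.11. The further Adh1 probe gave -0.88 and -0.55 in aged and young ileum. In aged colon the difference was -0.46 ± 0.32, of which iKO replicate 4 at 5.16 made much (-0.16 without it). Adh5, the formaldehyde-clearing class III enzyme, had 3.75, 4.09, 3.86 and 3.90 in aged ileum iKO, against 4.49, 4.12 and 4.24 in aged ileum flox (-0.38 ± 0.11, adjusted p = 0.215), and -0.44 ± 0.20 in aged colon. Adh6a differed by 0.00 in aged ileum and -0.48 in young ileum. Adh4, the class II enzyme, was at -3.26 or lower in colon and -3.08 or lower in ileum.

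The aldehyde dehydrogenases had medians of -0.03 in aged colon, -0.11 in aged ileum and -0.08 in young ileum, and 11 of 19, 10 of 18 and 12 of 18 lower in iKO. Aldh18a1, which makes the proline precursor pyrroline carboxylate, had -0.55, -1.08, -0.69 and -0.82 in young ileum iKO, against -0.37, -0.31, -0.03 and -0.24 in young ileum flox, with no overlap (-0.55 ± 0.18, adjusted p = 0.999). In aged ileum it had -0.28, -0.73, -0.81 and -0.87 in iKO, against -0.43, 0.46 and -0.02 in flox (-0.68 ± 0.20, adjusted p = 0.218). Aldh4a1, which acts on the same intermediate in proline breakdown, stood the other way: 1.35, 1.04, 0.93 and 1.35 in aged ileum iKO lay wholly above 0.58, 0.48 and 0.88 in aged ileum flox (0.52 ± 0.27, adjusted p = 0.46), and the young difference was 0.54 ± 0.25. The retinaldehyde dehydrogenase Aldh1a1 had 5.06, 4.89, 4.88 and 4.66 in aged ileum iKO, against 4.92, 5.78 and 5.55 in aged ileum flox (-0.54 ± 0.25), and differed by -0.52 ± 0.23 in young ileum. Its relatives Aldh1a2 and Aldh1a3 had values that overlapped between genotypes in every setting.

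Aldh3b2, of the lipid-aldehyde Aldh3b group, was the one member whose aged colon iKO arrays all lay above flox. It had 0.88, 1.12, 0.78 and 1.07 in aged colon iKO, against -0.59, 0.30 and -0.01 in aged colon flox. The difference was 1.06 ± 0.21, or 2.08-fold, with an adjusted p of 0.244, and it was 0.78 to 1.66 within the 3 slides. A further, dimmer Aldh3b2 probe gave 1.97 in aged colon, with an adjusted p of 0.0117 in a fit of single probes. In ileum the probes disagreed in size: the brighter one gave 0.20 in aged and 0.25 in young mice, the dimmer one 2.14 (adjusted p = 0.0721) and 1.82 (adjusted p = 0.249). Aldh2, which clears acetaldehyde, lay just below flox on every aged ileum iKO array, with a difference of -0.10 ± 0.12 (adjusted p = 0.771). Its mitochondrial relative Aldh1b1, Aldh3a2, the fatty aldehyde enzyme, and Aldh9a1, of carnitine synthesis, had overlapping genotypes in every setting.

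**Figure D3:**
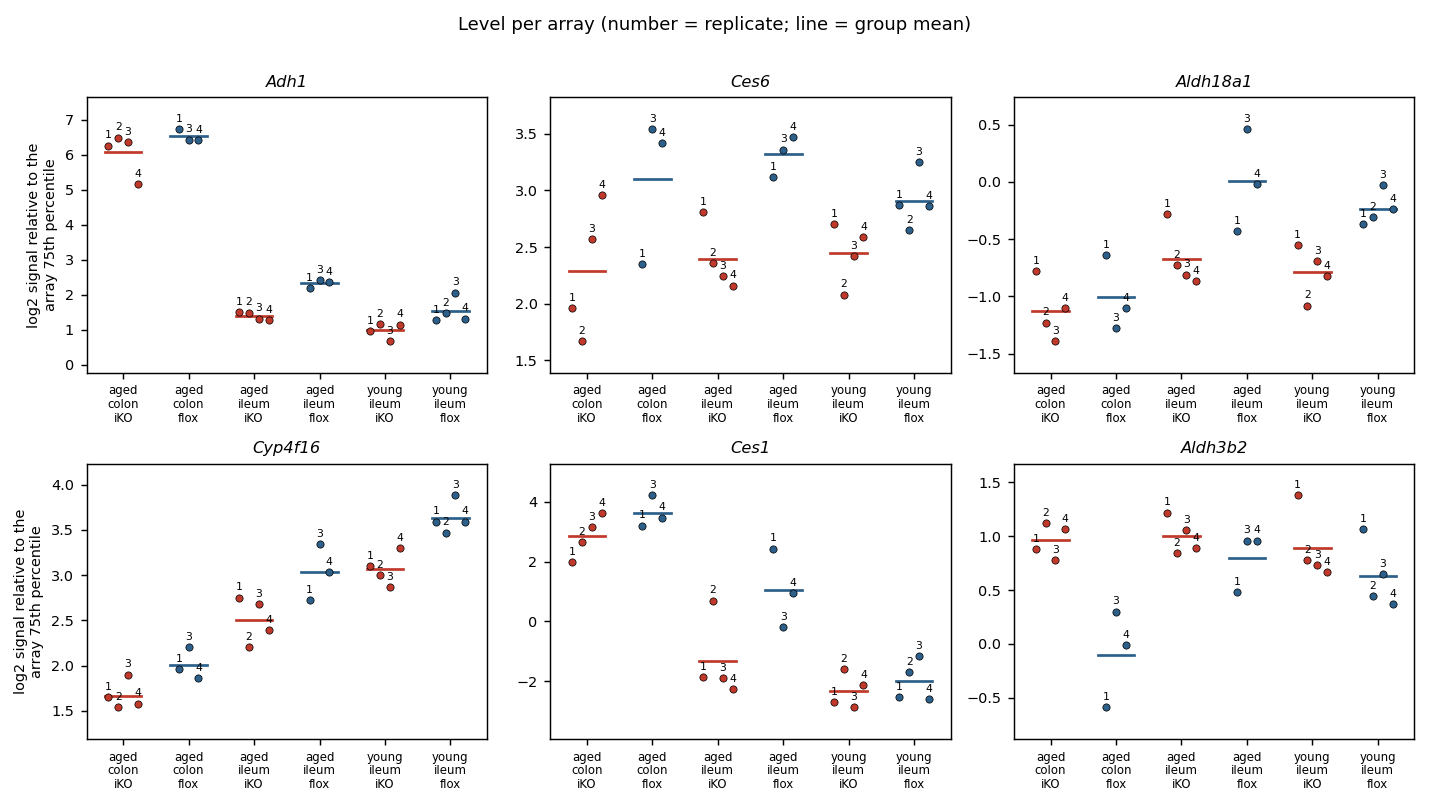
Level (log2 signal relative to the array's 75th percentile) of Adh1, Ces6, Aldh18a1, Cyp4f16, Ces1 and Aldh3b2 on every array by group, with iKO left of flox. Points are arrays and lines are group means. Adh1 and Ces6 do not overlap between aged ileum iKO and aged ileum flox, and the single high aged ileum iKO point of Ces1, at 0.70, is the array with colon markers.

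Whether the genotype difference changed with age or tissue was tested as an interaction. For genotype by age in the ileum, 0 of 62 members and 0% of all genes passed, with 2 members and 2.53% of all genes at an unadjusted p under 0.05. The members with the smallest p were Cyp2c37 at -0.83 ± 0.33, Aldh8a1 at -1.22 ± 0.50, Ces1 at -2.07 ± 0.97, Ces6 at -0.46 ± 0.25 and Adh5 at -0.25 ± 0.15, all with an adjusted p of 1. For genotype by tissue at 24 months, 0 of 74 members and 0.0353% of all genes passed, or 0.0252% upward and 0.0101% downward, with 6 members and 5.98% of all genes at an unadjusted p under 0.05. Cyp2d9 and Cyp2d10 had the smallest p, with 1.24 ± 0.33 and 1.37 ± 0.38 (adjusted p = 0.553 and 0.587), their iKO being lower in ileum and near flox in colon; Aldh3b2 followed with 0.85 ± 0.28, then Aldh1a1 with 0.76 ± 0.30 and Cyp2d22 with 1.04 ± 0.43. The further Cyp2d9 probe gave 1.25 ± 0.32, while further probes gave 0.18 ± 0.27 for Cyp2d10 (adjusted p = 0.92) and 0.15 ± 0.17 and 0.59 ± 0.39 for Cyp2d22.

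The second question was how these genes differed between old and young ileum. In flox mice Adh1, Ces1, Ces3 and Cyp4b1 were higher at 24 months and Cyp4f16 was lower; in iKO mice Cyp4f16 was the only one to pass, also lower. That is 5 of 62 members in flox, where 8.51% of all genes passed, and 1 of 62 in iKO, where 10.7% did. Age coincided with slide position, and these cannot be told apart. By direction, 3.18% of all genes were higher and 5.33% lower with age in flox, and 5.14% and 5.56% in iKO; at an unadjusted p under 0.05 there were 17 members in flox (26.5% of all genes) and 9 in iKO (27.7%). The flox calls lay near the threshold: without young ileum flox replicate 4, or without aged ileum flox replicate 4, 0 of them passed, and without young ileum flox replicate 1 only 1 did. The iKO call was lost without any of several arrays, with adjusted p up to 0.09.

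Ces1 had 2.44, -0.18 and 0.94 in aged ileum flox, against -2.54, -1.70, -1.17 and -2.60 in young ileum flox. Every aged array was above every young one, and the difference was 3.07 ± 0.71, or 8.39-fold (adjusted p = 0.0217). It was 2.38 ± 0.46 without the 2 arrays with colon markers (adjusted p = 0.0243) and 2.38 without aged flox replicate 1 alone (adjusted p = 0.09). In iKO mice Ces1 differed by 1.00 ± 0.66 (adjusted p = 0.354), and by 0.32 without those 2 arrays. Ces3 had 2.23, 1.52 and 1.86 in aged ileum flox, against 0.40, 0.88, 0.45 and -0.14 in young ileum flox, a difference of 1.47 ± 0.38 (adjusted p = 0.0337) that became 1.29 with an adjusted p of 0.131 without both arrays. In iKO it was 0.78 ± 0.35 (adjusted p = 0.171).

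Adh1 had 2.19, 2.42 and 2.37 in aged ileum flox, against 1.27, 1.47, 2.06 and 1.32 in young ileum flox (0.79 ± 0.18, adjusted p = 0.0185; 0.86 and 0.0478 without both arrays). In iKO it had 1.51, 1.49, 1.32 and 1.27 in aged ileum, against 0.97, 1.16, 0.68 and 1.15 in young ileum, again without overlap (0.41 ± 0.16, adjusted p = 0.123). Cyp4b1 had 2.31, 3.08 and 2.35 in aged ileum flox, against 1.26, 0.83, 2.08 and 0.71 in young ileum flox (1.36 ± 0.36, adjusted p = 0.0367; 1.49 and 0.0632 without both arrays), and 0.81 ± 0.33 in iKO. Cyp4f16 had 2.72, 3.34 and 3.03 in aged ileum flox, against 3.59, 3.47, 3.88 and 3.59 in young ileum flox (-0.60 ± 0.17, adjusted p = 0.0441; -0.45 and 0.134 without both arrays). In iKO it had 2.75, 2.20, 2.68 and 2.39 in aged ileum, against 3.1, 3.00, 2.87 and 3.30 in young ileum (-0.56 ± 0.16, adjusted p = 0.038; -0.46 and 0.071 without both arrays). A further Cyp4f16 probe gave -0.41 in flox (adjusted p = 0.194) and -0.20 in iKO (adjusted p = 0.492). At the brighter probe no aged Cyp4f16 value reached a young one in either genotype, and within slides the aged value was lower on 2 of 2 flox and 3 of 3 iKO slides.

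Close to the threshold in both genotypes were Cyp1b1, at 0.67 ± 0.22 in flox (adjusted p = 0.0788) and 0.60 ± 0.21 in iKO (adjusted p = 0.0795), and Aldh2, at -0.34 ± 0.12 (adjusted p = 0.0906) and -0.34 ± 0.11 (adjusted p = 0.0643). Aldh2 had 3.06, 2.98, 3.05 and 2.96 in aged ileum iKO, against 3.69, 3.31, 3.13 and 3.30 in young ileum iKO, and a further Aldh2 probe gave 0.28. Cyp2j13 had -0.40 ± 0.13 in iKO (adjusted p = 0.0618). In flox 8 of 62 genes lay wholly above young (9.23% of all genes) and 6 wholly below (15.4%); in iKO 1 lay wholly above (8.25%) and 2 wholly below (10.5%). Over the 51 genes seen on every array the aged minus young median was 0.14 in flox, and -0.04 without aged flox replicate 3, and -0.05 in iKO. Cyp3 medians were 0.69 in flox and -0.57 in iKO, without any member passing, and Adh6a had -1.22 in flox and -0.74 in iKO.

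The third comparison set aged colon against aged ileum. The labels do not say whether colon and ileum came from the same mice, though replicate numbers matched between the tissues. This test and that of genotype by tissue took the arrays as independent. Phase I genes divided by tissue more than by genotype or age: in iKO 41 of 74 passed, 22 higher and 19 lower in colon, and in flox 34 passed, 14 higher and 20 lower. Of all genes, 43.6% passed in iKO (24.3% higher, 19.4% lower) and 32.9% in flox (19.2% higher, 13.7% lower). Of the 45 members called in either genotype, 30 were called in both and all 45 had the same sign in both. The same counts were not made over all genes, so they are not read as a trait of phase I genes. Called higher in the colon of both genotypes were Adh1, Cyp2f2, Cyp2c29, Cyp2c37, Cyp2c66, Cyp2d9, Cyp2d13, Ces1, Ces2 and Ces3, among others. Called lower in both were Cyp1b1, Cyp3a25, Adh6a and 5 of 11 Cyp4 genes, and of 19 aldehyde dehydrogenases 4 were higher and 7 lower in iKO and 3 higher and 9 lower in flox. All colon arrays lay above all ileum arrays for 24 members in iKO (23.4% of all genes) and 17 in flox (27.4%), and below them for 20 in iKO (19.7%) and 20 in flox (18%). At an unadjusted p under 0.05 there were 46 members in iKO (51.4% of all genes) and 43 in flox (43.3%). Colon arrays were also brighter and run on other slides, so array run and tissue cannot be told apart.

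In Cyp2, 12 genes were higher and 2 lower in iKO colon, and 6 higher and 1 lower in flox colon. Cyp2f2, which activates naphthalene in lung, had 1.88, 2.02, 1.60 and 0.69 in aged colon iKO, against -4.04, -5.05, -5.14 and -5.28 in aged ileum iKO (6.42 ± 0.58, adjusted p = 6.89e-06). In flox it had 1.53, 1.44 and 1.40 in aged colon, against -5.75, -3.81 and -2.29 in aged ileum (5.41 ± 0.67). In ileum it was well above background on only 1 of 4 iKO and 2 of 3 flox arrays, so the size of these differences is uncertain. Cyp2d13 was not well above background on any aged ileum array and was seen on every colon array, a difference of at least 6.06-fold in iKO and 8.90-fold in flox. Cyp2d9 had 4.57, 4.28, 4.19 and 4.04 in aged colon iKO, against 1.19, 1.59, 1.84 and 1.09 in aged ileum iKO (2.84 ± 0.22), and its flox difference was 1.60 ± 0.25. Cyp2c55 had 5.52, 6.22, 6.12 and 6.88 in aged colon iKO (5.61 ± 1.03 above ileum, adjusted p = 0.00101) and 6.43, 7.42 and 6.91 in aged colon flox (3.06 ± 1.19, adjusted p = 0.0667). Without the 2 arrays with colon markers the differences were 6.78 and 3.89, and both passed (adjusted p = 9.75e-06 and 0.00137). Cyp2c66 was higher by 2.07 and 1.29, Cyp2c29 by 1.72 and 1.39 and Cyp2c37 by 1.47 and 1.30 in iKO and flox, though a further Cyp2c37 probe gave -0.30 in flox. Cyp2c65, Cyp2d10 and Cyp2d22 passed in iKO (1.92 ± 0.35, 2.07 ± 0.25 and 1.39 ± 0.28) and not in flox (1.01 ± 0.41, adjusted p = 0.076; 0.69, adjusted p = 0.0846; 0.35, adjusted p = 0.436). Of the smaller ones, Cyp2r1, the vitamin D hydroxylase (0.72), and Cyp2j9 (0.41) were higher and Cyp2j11 (-0.79) lower in iKO colon. Cyp2b10, the target of the constitutive androstane receptor, lay between -5.99 and -4.02 in colon. Cyp2u1, a long-chain fatty acid hydroxylase, was lower in colon, at -1.93 in iKO and -2.20 in flox.

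In families Cyp1, Cyp3 and Cyp4 the calls were lower in colon for Cyp1b1, for 2 of 6 Cyp3 genes and for 5 of 11 Cyp4 genes in each genotype, and higher for 1 Cyp4 gene in iKO. Cyp1b1 had -5.10, -4.53, -5.50 and -4.57 in aged colon iKO, against -1.80, -2.36, -1.67 and -1.63 in aged ileum iKO (-3.06 ± 0.22), and -3.13 ± 0.25 in flox. Cyp3a25 had -4.24, -2.75, -3.69 and -1.74 in aged colon iKO, against 1.32, -0.92, 0.63 and 0.19 in aged ileum iKO (-3.41 ± 0.93, adjusted p = 0.0112), and -5.78 ± 1.08 in flox. Cyp3a41 passed in flox (-4 ± 1.37, adjusted p = 0.0419) though its groups overlapped (-2.61 without aged ileum flox replicate 3, adjusted p = 0.161), and Cyp3a13 in iKO (-1.01 ± 0.21). In Cyp4, the 5 lower genes were the same in both genotypes: Cyp4v3 (-2.52 in iKO, -3.11 in flox), Cyp4f14 (-2.07, -2.04), Cyp4f18 (-1.90, -1.92), Cyp4a10 (-1.85, -1.79) and Cyp4f16 (-0.84, -1.02). Cyp4f14 had 4.66, 4.45, 4.85 and 5.22 in aged colon iKO, against 7, 6.64, 6.96 and 6.86 in aged ileum iKO. None of these 5 overlapped between tissues. Cyp4x1 was higher in iKO colon, by 0.76 ± 0.27 (adjusted p = 0.042).

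Esterases and dehydrogenases split by member. Adh1 had 6.26, 6.49, 6.35 and 5.16 in aged colon iKO, against 1.51, 1.49, 1.32 and 1.27 in aged ileum iKO (4.67 ± 0.24, 25.4-fold, adjusted p = 8.86e-08), and in flox it was 4.20 ± 0.27 higher (18.4-fold). Adh6a was the mirror image, with -4.96, -3.91, -4.38 and -3.98 in aged colon iKO, against 0.51, -0.52, -0.75 and 0.40 in aged ileum iKO (-4.22 ± 0.31; -3.85 ± 0.35 in flox). Ces1 was higher in colon by 4.19 ± 0.68 in iKO and 2.57 ± 0.79 in flox, 4.86 and 3.26 without the 2 arrays with colon markers. Ces3 and Ces2 were higher by 1.67 and 0.63 in iKO and 1.00 and 0.76 in flox, while Ces5 was lower (-1.28 and -0.82). Among Aldh genes, Aldh9a1 had 0.94, 0.95, 0.80 and 1.07 in aged colon iKO, against 3.63, 3.27, 3.44 and 3.48 in aged ileum iKO (-2.52 ± 0.15; -2.60 ± 0.17 in flox). Aldh1b1 (-1.29 in iKO, -1.35 in flox), Aldh3b1 (-1.67, -1.53), the folate enzyme Aldh1l1 (-1.23, -1.06) and Aldh16a1 (-0.98, -0.87) were lower as well. Aldh2 was higher, by 1.28 ± 0.14 and 1.22 ± 0.16, and so was Aldh6a1 of valine breakdown, by 0.64 and 0.36. Adh5 was higher by 0.64 and 0.70. Aldh5a1, of GABA breakdown, was lower in both genotypes (-0.58 and -0.67), while Aldh4a1 was lower in iKO alone among the calls (-0.94) and Aldh1a2, Aldh18a1 and Aldh3b2 in flox (-1.38, -1.01 and -0.90). Aldh8a1 was higher in iKO colon (1.09), and Aldh1l2, not well above background in aged ileum, was at least 1.30-fold higher in iKO and 1.01-fold in flox. Aldh1a1 did not pass in either genotype (0.50 ± 0.20, adjusted p = 0.0552; -0.25 ± 0.23, adjusted p = 0.418).

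**Figure D4:**
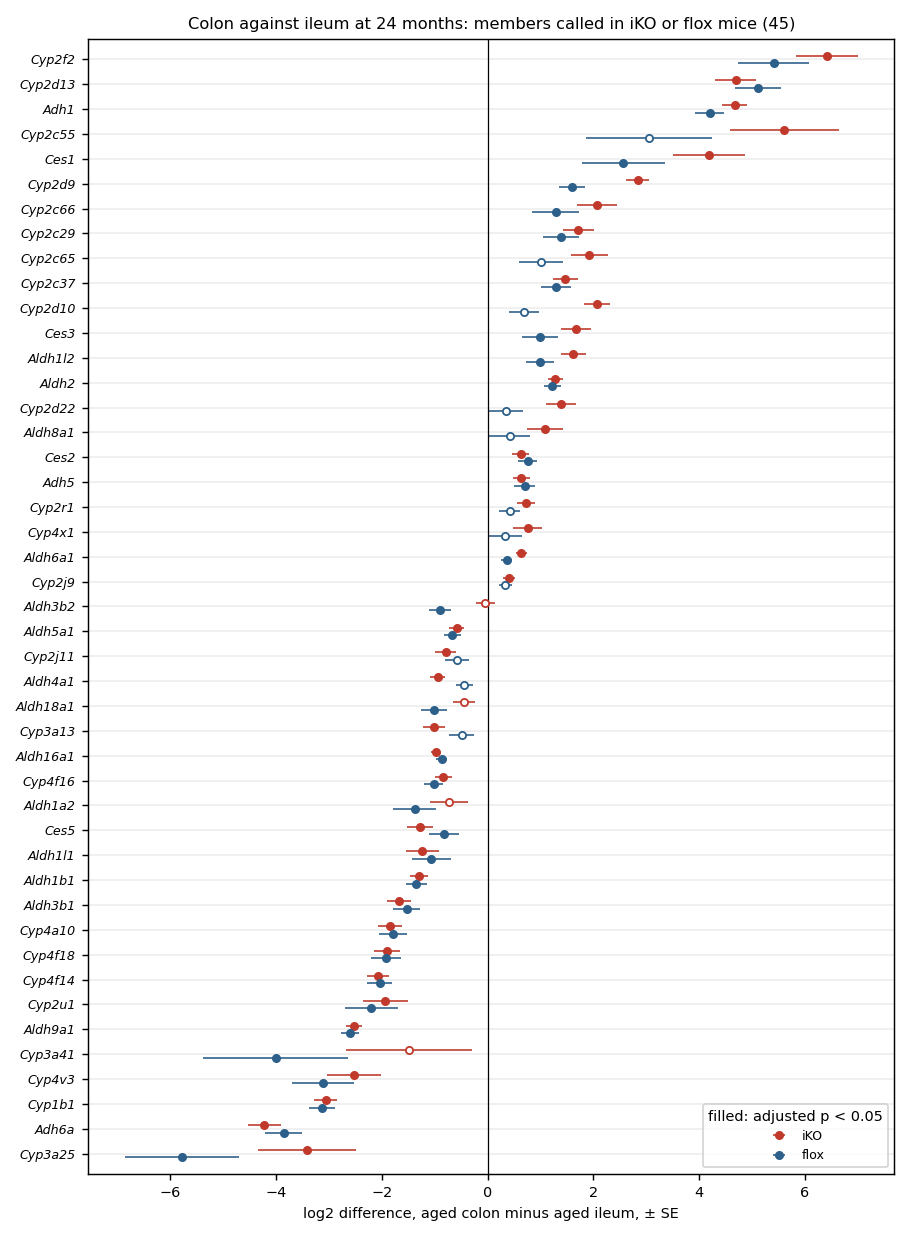
Aged colon minus aged ileum difference (log2) of the 45 phase I genes called in iKO or flox, ordered by the mean of their iKO and flox differences. The genotypes are separate points, and filled points passed at an adjusted p under 0.05. Cyp2f2, Cyp2d13 and Adh1 stand far to the colon side and Cyp3a25, Adh6a, Cyp1b1 and Cyp4v3 to the ileum side. Both genotypes lie on the same side of 0 for all 45, a count not made over all genes.

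**Figure D5:**
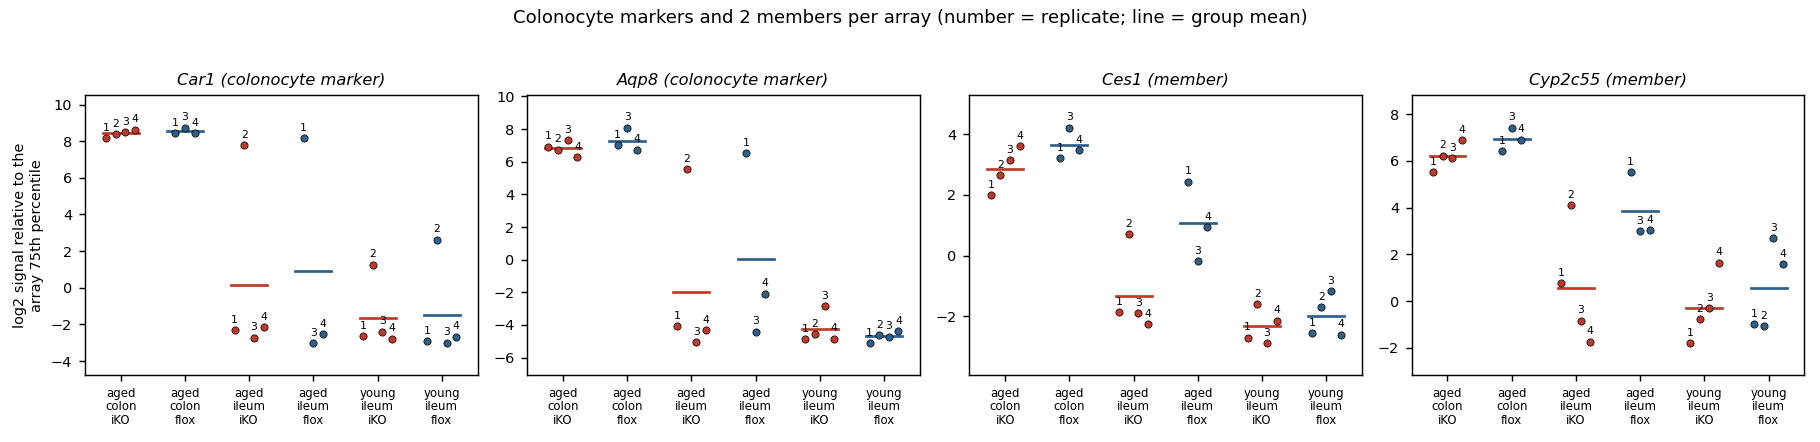
Level (log2 signal relative to the array's 75th percentile) of the colonocyte markers Car1 and Aqp8 and of Ces1 and Cyp2c55 on all 22 arrays by group. Aged ileum flox replicate 1 and aged ileum iKO replicate 2 reach 8.18 and 7.79 for Car1 and 6.55 and 5.57 for Aqp8, near the colon arrays, and are the highest of their groups for Ces1 and Cyp2c55.

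Genes that regulate or serve phase I enzymes were counted in 5 lists. In the iKO comparisons 0 of them passed in any setting: 0 of 20 tested receptors and transcription factors, 0 of 19 genes of electron and haem supply, 0 of 28 other phase I enzymes in colon and 0 of 27 in ileum, 0 of 18 and 0 of 16 retinoid genes, and 0 of 15 and 0 of 10 enzymes under older names. The list medians in aged ileum were -0.07, -0.02, -0.29, -0.37 and -0.38, beside 0.02 for all genes, and in young ileum -0.07, -0.02, -0.12, -0.24 and -0.15, beside -0.01. In aged colon they were -0.02, 0.03, -0.23, 0.00 and -0.05. Ahr, Nr1i2 and Hnf4a, which drive Cyp1, Cyp3a and many other members, differed by 0.02, -0.34 and -0.25 in aged colon, by -0.17, -0.15 and 0.13 in aged ileum and by -0.08, -0.07 and 0.01 in young ileum. Por, the electron donor, differed by -0.11, -0.12 and -0.02.

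With age the receptor PXR, encoded by Nr1i2, was lower in both genotypes. It had 2.13, 1.79, 1.99 and 1.70 in aged ileum iKO, against 3.68, 3.38, 3.51 and 3.32 in young ileum iKO (-1.57 ± 0.13, adjusted p = 8.09e-06), and 1.85, 2.01 and 2.27 in aged ileum flox, against 3.53, 3.33, 3.71 and 3.62 in young ileum flox (-1.50 ± 0.14, adjusted p = 2.55e-05). No aged array came near a young one. Its target Cyp3a11 did not pass in either genotype, and Cyp3a13 had -0.32 ± 0.18 in iKO. In all 1 of 20 receptors was lower with age in iKO (5.56% of all genes) and 3 in flox (5.33%), where Esrra and the clock factor Dbp also passed (-0.42 and -2.58). The retinoic acid hydroxylase Cyp26b1 was higher with age, by 1.58 ± 0.24 in iKO and 1.88 ± 0.26 in flox, as was the retinal reductase Dhrs3, by 0.47 and 0.64. The flavin oxidase Fmo1 was higher in flox (1.59 ± 0.33), and the cytochrome b5 genes Cyb5 and Cyb5b were lower in iKO (-0.43 and -0.42).

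Between tissues, where 24.3% of all genes were higher and 19.4% lower in iKO colon and 19.2% and 13.7% in flox colon, 15 of 28 other phase I enzymes were higher and 5 lower in iKO colon, and 10 higher and 5 lower in flox colon. The carbonyl reductases Cbr3 and Cbr1 were higher by 3.99 and 1.89 in iKO and 3.80 and 1.49 in flox, while xanthine dehydrogenase Xdh (-2.11, -2.14) and the pyrimidine enzyme Dpyd (-2.26, -2.20) were lower. Of 20 receptors 7 were higher and 6 lower in iKO colon, and 5 and 5 in flox colon; the bile acid receptor Nr1h4 (-1.32, -1.23) and the AhR repressor Ahrr (-1.30, -1.22) were lower and Pparg higher (1.77, 2.05). Of 18 retinoid genes 4 were higher and 5 lower in iKO colon, and 2 and 7 in flox colon, with Rdh7 at -4.41 and -6.01. Of 19 electron and haem genes 4 were higher and 4 lower in iKO and 1 and 3 in flox, with Cyb5 at -0.87 and -0.68. Of 15 enzymes under older names 6 were higher and 2 lower in each genotype.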

How the data were processed

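Total RNA from 22 samples was hybridised to one-colour Agilent arrays. The deposited values are signal intensities that, per the file headers, Agilent Feature Extraction 9.5 had background-subtracted within each array; the series matrix of the authors equals them. Here log2 intensity minus each array's 75th percentile was taken; control spots and outlier spots were left out, spots of a probe averaged, and the probe brightest over all arrays kept for each gene name. Genes entered a fit where the probe was flagged well above background throughout at least 1 group. The test was limma 3.58.1 (R 4.3.3), over the 15 ileum, the 7 colon or the 14 aged arrays, with calls at a Benjamini-Hochberg adjusted p under 0.05 over all genes tested. A fold against a group not well above background is a lower bound against the dimmest detected probes, from means of normalized log2 values.

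Members and lists were chosen with earlier results of these data known. Named were all members that passed (the 15 of largest difference where more did in 1 direction), the 5 of smallest p where fewer than 5 passed, the 3 brightest per family and tissue, and a list of enzymes of known intestinal role. Of the 86 genes 76 were matched to RefSeq (GRCm38.p6) by accession and 10 by symbol. The test was tried on simulated data. Equal replicate numbers were not taken as pairs. Over 21 ileum pairs of equal number residuals correlated from -0.40 to 0.44, with 15 above 0.1, and over 3 colon pairs from 0.02 to 0.17. Pairs of unequal number and pairs across tissues were not read, so these values cannot decide whether arrays were paired. Alternatives were quantile normalization, normexp, other filters, probe averaging, array weights, slide, replicate block, only the contrast's groups and each array left out. Reading and figures used pandas 2.3.3, matplotlib 3.10.9 and Biopython 1.88 with Python 3.11.15.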

Additional observations from a re-analysis of the deposited data

Results flagged for a closer look

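Dixon's test, which chance passes in about 5% of groups, singled out an array in 13 of 195 groups of 4 values of named members, or 6.67%. In young ileum flox, replicate 3 stood above the others for Cyp2d26 (6.32, others 3.5 to 3.57), Cyp2d10 (3.67, others 0.87 to 1.03) and Cyp2d9 (3.49, others 0.88 to 1.19), and replicate 4 was lowest for Cyp4f18 (3.09, others 3.4 to 3.46). In young ileum iKO, replicate 1 was highest for Aldh3b1 (4.66, others 4.03 to 4.04), Aldh3b2 (1.38, others 0.67 to 0.78) and Ces5 (6.05, others 5.68 to 5.72), replicate 2 for Aldh6a1 (1.26, others 0.73 to 0.82) and replicate 3 for Cyp2j6 (2.60, others 2.08 to 2.14). In aged ileum iKO, replicate 2, which carried colon markers, was highest for Ces1 (0.70, others -2.26 to -1.85). In aged colon iKO, replicate 4 was lowest for Aldh1l1 (1.34, others 2.79 to 3.04) and Cyp2d13 (-2.44, others -1.32 to -1.24) and highest for Cyp2c66 (4.89, others 3.97 to 4.02). The summed signal of 6 pancreatic markers reached 42.3 multiples of the 75th percentile in aged colon iKO replicate 4 and 4.50 to 18.1 in the others of its group, against 3.09 to 6.04 in aged colon flox; its part in these values was not tested.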

How the results depend on the processing

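The counts of 0 in young ileum iKO, aged colon iKO and both interactions stayed 0 under every alternative run, including each array left out (0 to 0); among single probes the further Aldh3b2 probe passed in aged colon (1.97, adjusted p = 0.0117). In aged ileum iKO the count of 0 members became 2 with quantile normalization, 1 with normexp, 1 with probes averaged, 1 with only the contrast's groups and 15 with array weights, and 0 to 1 with an array left out: Adh1 passed without young ileum flox replicate 3 (adjusted p = 0.00811) and Ces6 without aged ileum iKO replicate 1 (adjusted p = 0.0381). The 5 members of the flox age comparison became 0 with no filter, 19 with array weights, 2 with slide as a fixed factor and 2 with only the contrast's groups, and 0 to 9 with an array left out. The single iKO age member became 0 with quantile normalization, normexp, no filter, probes averaged and only the contrast's groups, 5 with array weights, 2 with slide as a fixed factor, and 0 to 2 with an array left out. Tissue counts ran from 26 to 39 in flox and 40 to 44 in iKO with an array left out. Calls over all genes moved too: from 16 to 46 in aged ileum iKO, 446 to 1436 in flox ageing and 640 to 1765 in iKO ageing. Between tissues they ran from 4942 to 6585 in flox and 7280 to 8869 in iKO. Counts under the other settings are given for members alone and are not read as a result about them. The sign turned for Cyp2s1 in aged colon when a probe near background was averaged in (0.07). With the further probe it turned for Aldh2 in iKO ageing (0.28), Cyp2c37 in flox colon against ileum (-0.30) and Aldh3b2 in genotype by tissue (-0.17). Of the other values for named members, 2140 kept direction and side of the threshold, 129 lost and 22 gained the call; the causes were not tested. Quantile normalization and normexp moved the all-gene median of the tissue comparisons from 0.08 to 0.11 and -0.05 in flox and from 0.07 to 0.12 and -0.07 in iKO, with 16 higher and 19 lower, and 15 and 21, members in flox.

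With replicate number as a block, the pairing left aged ileum iKO at 0 and gave 2 members in iKO ageing. The labels do not say what arrays of equal number share. Slide as a fixed factor was not run for the tissue contrasts, because each slide holds 1 tissue. Dim probes give only bounds.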
